A study of Apis mellifera with 15 samples.

Results

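Brain pools of forager honey bees (Apis mellifera) differed up to 104-fold in the transcript of the antimicrobial peptide gene LOC406142, and the libraries with high counts of this gene were compared here with those with low counts. The choice was made on that measured count: 5 libraries were taken as high (control replicates 1, 2 and 4 and 25 ng/bee replicates 2 and 3) and 7 as low (control replicates 3 and 5, 25 ng/bee replicates 1 and 5, and 250 ng/bee replicates 1, 4 and 5), which makes 12 of the 15 libraries of the study. The other 3 libraries (25 ng/bee replicate 4 and 250 ng/bee replicates 2 and 3) lay between. The study fed adult worker bees, collected as foragers from an unpolluted site and held in PET bottles, for 72 h with sucrose solution containing solvent alone, 25 ng/bee thiacloprid or 250 ng/bee thiacloprid. Thiacloprid belongs to the neonicotinoids, insecticides that bind the nicotinic acetylcholine receptors of nerve cells. Each group had 5 libraries, and each library came from a pool of 5 dissected brains, so a level is the mean over the bees of a pool and cannot show how many of them carried it. The high libraries held 3 controls, 2 pools at 25 ng/bee and 0 at 250 ng/bee, and dose group was a term in every fit below unless stated.

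Insects answer microbes and wounds with small secreted antimicrobial peptides, which in the honey bee include apidaecins, abaecin, hymenoptaecin and defensins. Their genes are switched on through the Toll and Imd pathways after recognition proteins such as peptidoglycan recognition proteins bind parts of the microbial cell wall, mainly in the fat body and in blood cells. The brain also makes such peptides, in Drosophila partly in glia and in the head fat body that lies against the brain. Bulk RNA from a dissected brain holds all cells that came with it, and fewer cells of a type and less RNA per cell cannot be told apart in these data.

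LOC406142 itself is described without a test, since its count chose the libraries. It lies on linkage group 6 at 2367078 to 2368717 (plus strand, coordinates of the deposited transcript tables). LOC406142 stood at 572, 1109, 50.7, 4832 and 46.3 CPM in control replicates 1 to 5, at 131, 543, 1679.5, 272 and 98.02 CPM at 25 ng/bee and at 62.0, 203, 315, 80.6 and 74.7 CPM at 250 ng/bee, in the same order of replicates. CPM are counts divided by the library total and scaled by the TMM factors of edgeR. The 5 high libraries ran from 543 to 4832 CPM, the 7 low libraries from 46.3 to 131 CPM and the 3 others from 203 to 315 CPM. The libraries formed a gradual series rather than 2 separate clusters. The edges of the classes were close to the libraries between them: the highest low library by CPM, 25 ng/bee replicate 1, had 1240 counts and 131 CPM, the lowest library between had 2512 counts and 203 CPM, the highest between had 2726 counts and 315 CPM, and the lowest high library, 25 ng/bee replicate 2, had 5326 counts and 543 CPM. By raw count the highest low library was 250 ng/bee replicate 1, the deepest library, with 1400 counts and 62.0 CPM. Because of this gradual series, genes were tested for a slope on the log2 CPM of LOC406142 over all 15 libraries. The high and low classes were used for description, and in an alternative fit whose p-values do not account for the choice on a measured level. A slope is the log2 change of a gene per doubling of LOC406142.

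**Figure D1:**
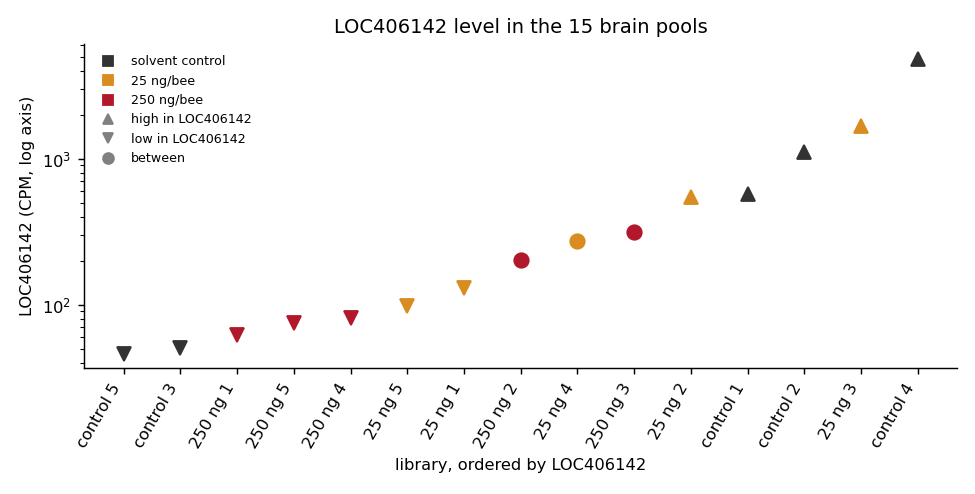
LOC406142 level (TMM-scaled CPM, log axis) in each of the 15 libraries, ordered by level, coloured by dose group, with the shape giving the class. The low libraries end at 131 CPM and the high ones start at 543 CPM, with 3 libraries between them, and no library at 250 ng/bee is in the high class.

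Total counts were 9233065 to 11500655 in the high libraries, 6834898 to 29208991 in the low ones and 9270293 to 11180170 in those between. The largest library, 250 ng/bee replicate 1, was also the one whose description starts with 20191023, where the other 14 start with 20190809, and the meaning of the prefix is not stated by the labels. The brain label was checked with 6 neuronal genes, among them the synaptic genes Syt1, Syx1A and brp. Their summed level was 1011 to 1284 CPM in the high libraries and 876 to 1382 CPM in the low ones. All libraries also carried transcripts of the hypopharyngeal gland, with 35842 to 269468 CPM over its 13 markers in the high libraries and 38989 to 284479 CPM in the low ones. Total depth and these marker sums overlapped between the classes, and their part in the results below was not tested except where a value is given.

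The first comparison asked which host genes followed LOC406142 across pools. With edgeR's quasi-likelihood F test and Benjamini-Hochberg adjustment, 2 of 9559 tested genes (0.0209%) passed, LOC406144 and Apid1, and both rose with LOC406142. No gene passed with a negative slope in edgeR (0%), while 7 did in DESeq2's Wald test and 3 in limma-voom. Both genes belong to the list of antimicrobial peptides, of which 3 members besides LOC406142 were tested. At an unadjusted p under 0.05, 601 genes (6.29%) had a slope, 250 of them positive and 351 negative. Over all 9559 tested genes, 4406 slopes (46.1%) were negative and 5153 (53.9%) positive. The median slope was 0.00, and the 5th and 95th percentiles were -0.10 and 0.08.

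LOC406144 lies on linkage group 10 at 12267100 to 12267965 (minus strand) and the files give it no product name. LOC406144 stood at 431, 1265, 207, 4386 and 330.5 CPM in control replicates 1 to 5, at 129.8, 435, 1063, 512 and 189 CPM at 25 ng/bee and at 180.4, 299, 611, 222 and 232 CPM at 250 ng/bee, in the same order of replicates. All 5 high libraries, from 431 to 4386 CPM, lay above all 7 low libraries, from 130 to 330.5 CPM, and the libraries between held 299 to 611 CPM. The slope was 0.59 ± 0.062 (SE, 15 libraries), a 1.51-fold rise per doubling of LOC406142, with an adjusted p of 0.000675 in edgeR. Within the dose groups the slope was 0.57 ± 0.079 in the control, 0.65 ± 0.14 at 25 ng/bee and 0.64 ± 0.22 at 250 ng/bee (SE, 5 libraries each).

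Apid1 encodes apidaecin, a proline-rich peptide that acts against Gram-negative bacteria, and lies on linkage group 16 at 4518604 to 4520315 (plus strand). Apid1 stood at 80.1, 299, 50.3, 3538 and 71.8 CPM in control replicates 1 to 5, at 35.8, 96.6, 430.3, 101 and 78.4 CPM at 25 ng/bee and at 41.8, 110.2, 144, 59.2 and 51.6 CPM at 250 ng/bee, in the same order of replicates. Control replicate 4 was far above the next library, 25 ng/bee replicate 3. The high libraries again lay above the low ones, but by little at the edge: the lowest high library held 80.1 CPM and the highest low library 78.4 CPM. The slope was 0.78 ± 0.092 (SE, 15 libraries), a 1.72-fold rise per doubling, with an adjusted p of 0.00170 in edgeR. It was 0.81 ± 0.12 in the control, 0.67 ± 0.20 at 25 ng/bee and 0.74 ± 0.35 at 250 ng/bee. The reference lists Apid14 and Apid22 as synonyms of this gene, so reads of near-identical apidaecin copies may have been counted together or split.

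Control replicate 4 had the highest level of LOC406142, LOC406144 and Apid1. Without it, the slopes were 0.52 for LOC406144 and 0.55 for Apid1, with adjusted p of 0.0276 and 0.0372 in edgeR. Both genes also passed with each of the other 14 libraries left out in turn. Apid1 missed the threshold over the 10 control and 25 ng/bee libraries alone (slope 0.78, adjusted p = 0.0659 in edgeR) and on the rank of LOC406142 (adjusted p = 0.0788 in edgeR). Across the 7 low libraries alone, in which LOC406142 spanned at most 0.41 on the log2 scale within a dose group, the slopes were -0.48 for LOC406144 and -0.95 for Apid1, with adjusted p of 0.886 and 0.816 in edgeR. Fitted as high against low class, the log2 differences were 2.60 ± 0.56 and 3.39 ± 1.02 (SE, 12 libraries), with an adjusted p of 0.982 for each in edgeR.

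**Figure D2:**
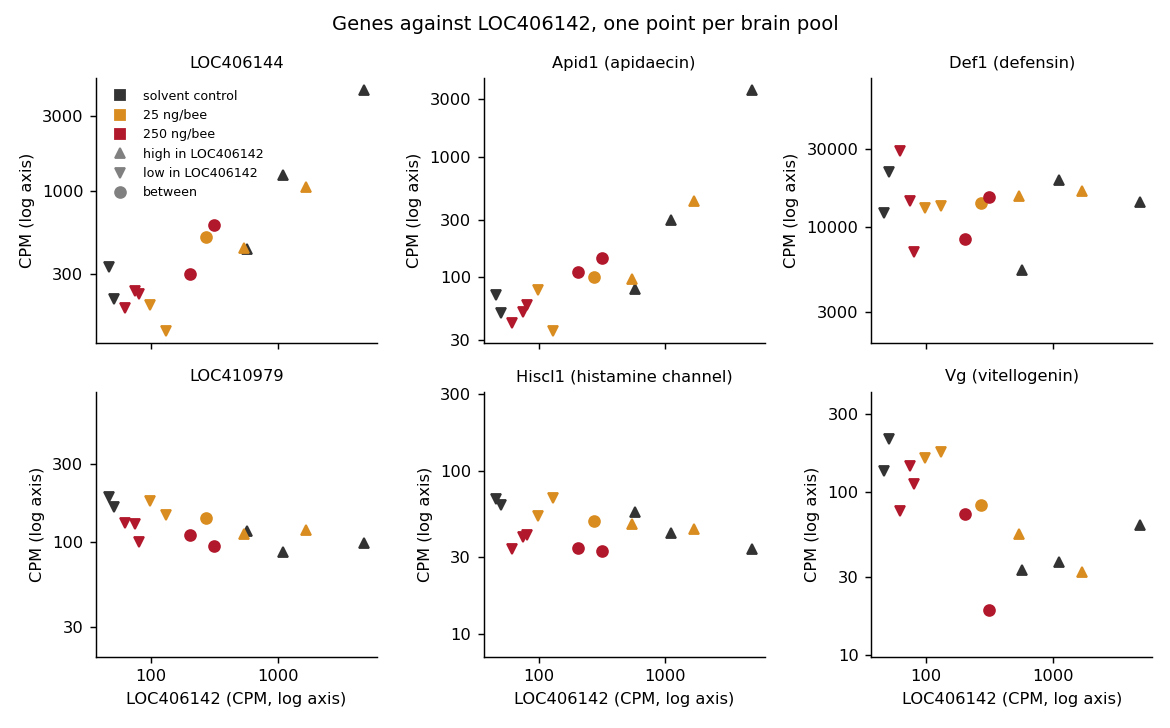
Level of 6 genes (TMM-scaled CPM, log axis) against LOC406142 (CPM, log axis), 1 point per library, coloured by dose group and shaped by class. Each panel has its own vertical range. LOC406144 and Apid1 rise to 4386 and 3538 CPM in control replicate 4, Def1 has a slope of -0.03, and Vg is lower in the high libraries (32.3 to 62.7 CPM) than in the low ones (76.3 to 213 CPM).

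Of the defensin genes Def1 and Def2, Def1 had no slope past the threshold and Def2 was not tested in the main fit. Def1 lies on linkage group 6 at 8673495 to 8675023 (plus strand). Def1 stood at 5389, 19287, 21691, 14171 and 12224 CPM in control replicates 1 to 5, at 13359, 15494, 16487, 14058 and 12971 CPM at 25 ng/bee and at 29202, 8396, 15161, 6977 and 14309 CPM at 250 ng/bee, in the same order of replicates. The high libraries, from 5389 to 19287 CPM, overlapped the low ones, from 6977 to 29202 CPM. Its slope was -0.03 ± 0.088 with an adjusted p of 0.960 in edgeR, and the difference of this slope from that of LOC406144 was not tested. Def1 was lowest in the libraries with the lowest gland marker sums, control replicate 1 (35842 CPM) and 250 ng/bee replicates 4 (38989) and 2 (77141). It was highest in those with the highest sums, control replicates 2 (269468) and 3 (282213) and 250 ng/bee replicate 1 (284479). In the remaining libraries the 2 orders differed in part. The relation of Def1 to the gland markers was not tested. Def2 was listed at 0 in 14 libraries and at 0.558 FPKM in 250 ng/bee replicate 2, and it did not pass the low-count filter.

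To compare levels between these genes, FPKM (fragments per length of transcript and depth of library, as deposited) were summed over the transcripts of each gene. Def1 had the highest FPKM of the antimicrobial peptide genes in 15 of 15 libraries, with a median of 19677 FPKM. The median was 909 FPKM for LOC406144, 308 FPKM for LOC406142 and 134 FPKM for Apid1. In the high libraries LOC406144 ran from 1189 to 11743 FPKM, against 321 to 909 FPKM in the low ones. Apid1 ran from 135 to 5036 FPKM in the high libraries and from 45.5 to 113 FPKM in the low ones. The Def1 level ran from 9085 to 22706 FPKM in the high libraries and from 11684 to 31768 FPKM in the low ones, so it exceeded the other peptide genes also where these were at their highest.

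**Figure D3:**
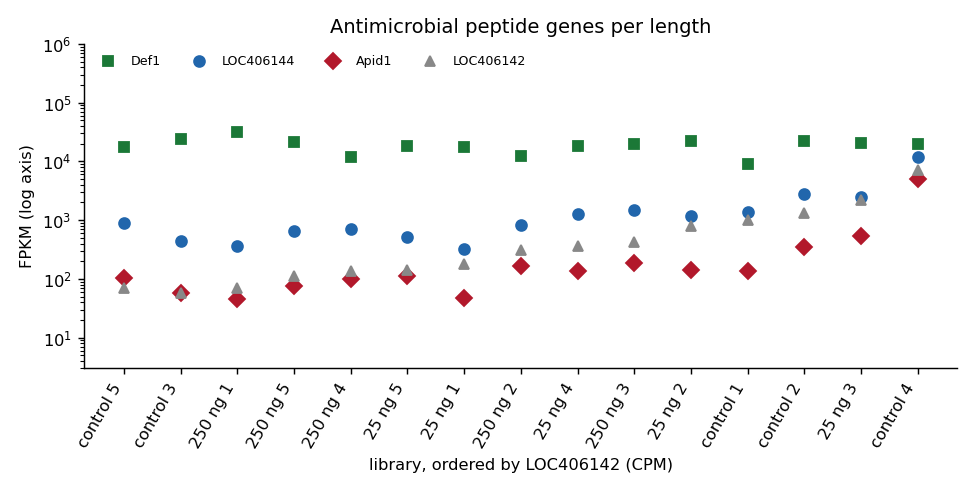
FPKM per gene (log axis) of 4 antimicrobial peptide genes in each library, with libraries ordered by the CPM of LOC406142 from left to right. Def1 stays between 9085 and 31768 FPKM, while LOC406144 goes from 321 to 11743 FPKM and Apid1 from 45.5 to 5036 FPKM.

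Genes that lie near or across these loci were also looked at, since 75-base reads were counted without the use of strand being stated. LOC406142 lies inside LOC552342, a gene on the opposite strand (linkage group 6, 2359637 to 2382954). LOC552342 held 34.5 to 117 CPM, and its slope was 0.16 ± 0.049 with an adjusted p of 0.736 in edgeR. LOC406144 lies inside LOC414025, also on the opposite strand (linkage group 10, 12257774 to 12342999), which held 2.99 to 7.98 CPM with a slope of 0.04 ± 0.057. The libraries were made with a strand-specific kit, but whether the counting used the strand is not stated. Reads of overlapping genes on opposite strands may therefore not have been separated in the deposited counts. Within 50000 bases, 9 tested genes near LOC406142, 2 near LOC406144, 8 near Apid1 and 6 near Def1 gave 0 genes past the threshold in edgeR. The slopes of these neighbours ran from -0.14 to 0.19.

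Genes of immune recognition and signalling were taken next, from lists matched to the symbols in the files. The match was thin, with 5 of 34 recognition names and 4 of 54 signalling names found, so most of these pathways was not measured by name. Of 5 tested recognition genes, 0 passed in edgeR and 2 had an unadjusted p under 0.05 (Dscam and PGRP-S3), 1 had a positive and 4 a negative slope, and the median was -0.05, beside 6.29% of all genes under that p and 46.1% with a negative slope. PGRP-S3, a short peptidoglycan recognition protein, stood at 22.0, 17.2, 44.0, 17.2 and 21.2 CPM in 25 ng/bee replicates 1 to 5 and at 12.8, 20.6, 14.2, 17.6 and 13.7 CPM in control replicates 1 to 5. Its slope was 0.10 ± 0.046 with an adjusted p of 0.765 in edgeR, and its highest value, in 25 ng/bee replicate 3, was in the pool with the second highest LOC406142. Without that library the slope was 0.03. Pgrp-s2, another short peptidoglycan recognition protein, had a slope of -0.07, B-gluc1, a beta-glucan recognition gene, one of -0.03, and the cell adhesion genes Dscam and Abscam slopes of -0.11 and -0.05. None of these 4 passed in edgeR, with adjusted p from 0.754 to 0.842.

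The 4 signalling genes found were all tested, 0 passed in edgeR, and their median slope was 0.00. They were 18-w, a Toll-like receptor, at -0.01, Imd, the adaptor of the Imd pathway, at -0.0045, Dl, matched by spelling with its identity not stated in the reference, at 0.01, and cact1, a cactus gene that encodes an inhibitor of the Toll pathway, at 0.08 ± 0.047. The lowest p of the 4 was that of cact1, with an adjusted p of 0.792 in edgeR, and 0 of the 4 had an unadjusted p under 0.05. The melanization and effector genes PPO, Tsf1 and NOS gave 0 past the threshold and a median of -0.01, and Tsf1, a transferrin, had a slope of 0.02. Neither of the 2 tested RNA interference genes passed, and Dcr-1, a Dicer enzyme, had the lower p with a slope of 0.02.

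**Figure D4:**
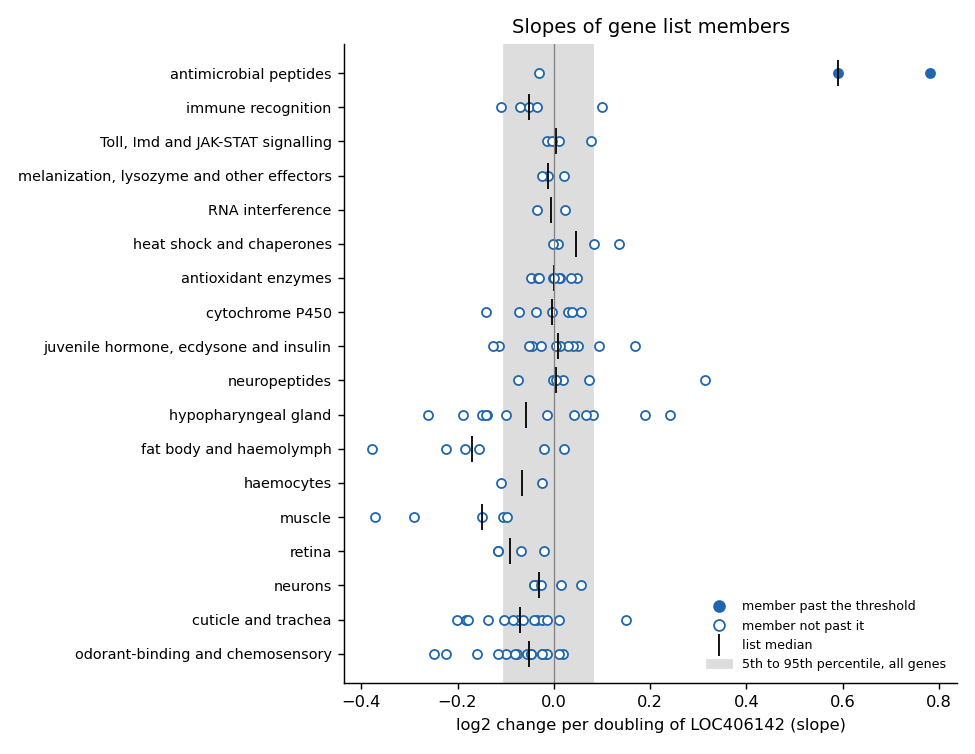
Slope of each tested list member on LOC406142 (log2 change per doubling), 1 row per list, with filled points for members past the threshold, a bar for the list median and a grey band for the 5th to 95th percentile of all genes. The filled points are LOC406144 at 0.59 and Apid1 at 0.78, and no other list has one.

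The other lists, for stress, detoxification, hormones and neuropeptides, had 0 genes past the threshold in edgeR, and 1 of 9 antioxidant and 2 of 12 hormone genes had an unadjusted p under 0.05, beside 6.29% of all genes. The median slope was 0.05 over 4 heat shock genes, 0.00 over 9 antioxidant enzymes, 0.00 over 7 cytochrome P450 genes, 0.01 over 12 genes of juvenile hormone, ecdysone and insulin, and 0.00 over 8 neuropeptides, beside 0.00 over all genes. The member with the lowest p was Hsp90, a chaperone, at 0.13, Sod2, the mitochondrial superoxide dismutase, at -0.05, Cyp314a1, which makes the active moulting hormone, at -0.07, Kr-h1, a transcription factor of the juvenile hormone response, at 0.17, and Pban, a pyrokinin precursor, at 0.31. The adjusted p of these 5 genes in edgeR ran from 0.736 to 0.860. Pban was near the detection limit, from 0 to 13.5 CPM, and its slope moved between 0.14 and 0.56 with 1 library left out. The slope of Hsp90 was 0.07 without 25 ng/bee replicate 3 and 0.25 without control replicate 4.

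Among genes with a negative slope, the lowest p belonged to LOC410979, Hiscl1, Vg, LOC726322 (slope -0.11) and LOC408453 (slope -0.13), and none passed in edgeR. LOC410979 (linkage group 4, 13163373 to 13192559) had a slope of -0.15 ± 0.024 with an adjusted p of 0.0619 in edgeR, the smallest after the 2 peptide genes. LOC410979 stood at 118, 87.0, 164, 98.4 and 189 CPM in control replicates 1 to 5, at 147, 113, 119, 141 and 178 CPM at 25 ng/bee and at 131, 111, 95.1, 99.8 and 129 CPM at 250 ng/bee, in the same order of replicates. Its high libraries, from 87.0 to 119 CPM, overlapped the low ones, from 99.8 to 189 CPM. Within the dose groups its slope was -0.15 in the control, -0.14 at 25 ng/bee and -0.15 at 250 ng/bee. On the rank of LOC406142 it passed, with an adjusted p of 0.0288 in edgeR, and it also passed in DESeq2, in limma-voom and without 250 ng/bee replicate 4. In DESeq2's Wald test LOC726322 and LOC408453 passed as well, each with an adjusted p of 0.0494.

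Hiscl1 encodes a histamine-gated chloride channel (linkage group 2, 6409564 to 6416225). Hiscl1 stood at 56.1, 41.8, 62.1, 33.1 and 67.6 CPM in control replicates 1 to 5, at 68.2, 47.5, 44.3, 49.6 and 53.3 CPM at 25 ng/bee and at 33.3, 33.8, 32.6, 40.8 and 39.6 CPM at 250 ng/bee, in the same order of replicates. The slope was -0.13 ± 0.024 with an adjusted p of 0.164 in edgeR. The classes overlapped, with 33.1 to 56.1 CPM in the high libraries and 33.3 to 68.2 CPM in the low ones, and the 5 libraries at 250 ng/bee held 32.6 to 40.8 CPM. Without 250 ng/bee replicate 1, the library with the other description prefix, Hiscl1 passed with an adjusted p of 0.0465 in edgeR, and it also passed in DESeq2 and limma-voom.

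Vg encodes vitellogenin, the yolk precursor made in the fat body, which in worker bees is also tied to nursing, ageing and juvenile hormone (linkage group 4, 5029485 to 5035661). Vg stood at 33.0, 37.0, 213, 62.7 and 134 CPM in control replicates 1 to 5, at 175, 55.0, 32.3, 83.4 and 162 CPM at 25 ng/bee and at 76.3, 72.7, 18.7, 111 and 145 CPM at 250 ng/bee, in the same order of replicates. All 5 high libraries, with a mean of 44.0 ± 13.9 CPM (SD), lay below all 7 low libraries, with 145 ± 44.3 CPM (SD). The slope was -0.38 ± 0.086 with an adjusted p of 0.573 in edgeR. It was -0.28 ± 0.089 in the control, -0.62 ± 0.18 at 25 ng/bee and -0.86 ± 0.32 at 250 ng/bee, and the slope at 25 ng/bee minus that in the control was -0.34 ± 0.19 with an adjusted p of 1.00 in edgeR. Control replicate 4, highest in LOC406142, had the highest Vg of the high libraries at 62.7 CPM, and without it the slope was -0.61 with an adjusted p of 0.0255 in edgeR. In limma-voom Vg passed, with a slope of -0.50 and an adjusted p of 0.0490. The fitted log2 difference between the high and the low class was -1.96 ± 0.24 (SE, 12 libraries), with an adjusted p of 0.0314 in edgeR, and Vg was the 1 of 9559 genes (0.0105%) past the threshold in that fit, whose classes were chosen on a measured level.

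Markers of tissues that lie around the brain and can come with it were described by their counts and medians. Over 6 tested fat body and haemolymph markers, 0 passed in edgeR, 3 had an unadjusted p under 0.05 (Vg, Hex110 and Obp14), 5 slopes were negative and 1 was positive, and the median was -0.17. Over all genes 6.29% had such a p and 46.1% a negative slope. Besides Vg these were the storage protein genes Hex110 at -0.18, Hex70a at -0.16 and HEX70b at -0.02, the odorant-binding gene Obp14 at -0.22, and Tsf1 at 0.02. Hex70c, another storage protein gene, had no count in any library. Summed over the fat body list, which Tsf1 dominates, the level was 3543 to 4906 CPM in the high libraries and 2985 to 4570 CPM in the low ones. With the mean log2 level of these markers as a further term, the slopes of LOC406144 and Apid1 were 0.65 and 0.93, with an adjusted p of 0.00496 for each in edgeR.

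The hypopharyngeal gland list had 12 tested markers, of which 0 passed and 5 had positive slopes, with a median of -0.06. Mrjp9, a major royal jelly protein gene, had the lowest p of the list, with a slope of 0.24 ± 0.086 and an adjusted p of 0.736 in edgeR. It ran from 16.0 to 52.2 CPM in the high libraries and from 6.47 to 18.9 CPM in the low ones. With the gland markers as a further term, LOC406144 and Apid1 had slopes of 0.59 and 0.78, with adjusted p of 0.00135 and 0.00305 in edgeR. Muscle markers gave 0 of 5 past the threshold, all 5 with negative slopes, and a median of -0.15. Their sum was 90.6 to 313 CPM in the high libraries and 132 to 1055 CPM in the low ones, and the member with the lowest p, the troponin T gene TpnT, reached 189 CPM in control replicate 5 and 263 CPM in 250 ng/bee replicate 4, both low libraries. Without control replicate 5 the slope of TpnT was -0.05, from -0.37 over all libraries.

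The blood cell markers PPO, prophenoloxidase, and Dscam had negative slopes and 0 past the threshold, and their sum was 257 to 345 CPM in the high libraries and 251 to 397 CPM in the low ones. Retinal opsin genes had 0 of 4 past the threshold and a median of -0.09, with Blop, the blue-sensitive opsin, at -0.12, and a sum of 2958 to 6842 CPM against 4642 to 9255 CPM. Cuticle and trachea genes had 0 of 14 past the threshold, 12 with negative slopes, and a median of -0.07, with CPR14 at -0.14 and CPR28 at 0.15. Odorant-binding and chemosensory genes had 0 of 16, 14 with negative slopes, and a median of -0.05, with Obp10 at -0.10. The 6 neuronal genes had 0 past the threshold and a median of -0.03, and Syx1A, a syntaxin, was at -0.04. An unadjusted p under 0.05 was reached by 4 cuticle, 4 odorant-binding or chemosensory, 1 blood cell and 1 gland marker, and by 0 muscle, retinal or neuronal ones, beside 6.29% of all genes. The counts of negative slopes stand beside 46.1% of all genes, and members of a list share their tissue and are not independent. Some genes are in more than 1 list: Obp14 counts as fat body and odorant-binding, and Dscam as blood cell and recognition. The summed levels of each marker list overlapped between the high and the low libraries, and the part of any carried-along tissue in the slopes was not tested beyond the fits with the fat body and gland terms.

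The remaining genes with the lowest p and a positive slope carry no name in the files. LOC411577 (slope 0.10), LOC494509 (0.12) and LOC412513 (0.10) had all high libraries above all low ones, with small differences: LOC411577 ran from 161 to 191 CPM against 94.0 to 137 CPM, LOC494509 from 98.7 to 134 CPM against 64.6 to 88.7 CPM, and LOC412513 from 46.5 to 60.3 CPM against 34.0 to 43.6 CPM. Their adjusted p in edgeR was 0.573 for the first 2 and 0.647 for the third, and LOC411577 passed in DESeq2's Wald test with an adjusted p of 0.0307. LOC726966 had a slope of 0.14 with an adjusted p of 0.640 in edgeR. LOC551089 had a slope of 0.66 ± 0.16 and an adjusted p of 0.640 in edgeR, and without control replicate 4 the slope was 0.33. LOC551089 stood at 0.600, 1.87, 0.821, 50.0 and 3.15 CPM in control replicates 1 to 5, at 0.316, 0.509, 14.6, 0.961 and 2.87 CPM at 25 ng/bee and at 1.28, 2.91, 0.694, 0.545 and 0.785 CPM at 250 ng/bee, in the same order of replicates. It was high in control replicate 4 and in 25 ng/bee replicate 3, the libraries with the most LOC406142, and at most 3.15 CPM in the other 13. LOC551089 overlaps LOC100576599 on the opposite strand, which held 0 to 5.06 CPM and had a slope of 0.51 ± 0.19. Their reads may not have been separated if the counting did not use the strand.

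Of the genes with a symbol, up to 4 per direction were named by p. Besides Hiscl1, Vg and Apid1 these were Reck at -0.11 and CPR14 at -0.14 with negative slopes, and CPR28 at 0.15, Acph-1 at 0.30 and Kr-h1 at 0.17 with positive ones. Reck names a membrane-bound inhibitor of matrix proteases and Acph-1 an acid phosphatase of bee venom. Their adjusted p in edgeR ran from 0.729 to 0.736. Acph-1 was a low gene, from 0.841 to 12.5 CPM, and its slope was 0.16 without control replicate 4.

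The second comparison counted genes whose high and low libraries did not overlap, without a test. Of 9559 genes, 47 (0.492%) had all 5 high libraries above all 7 low ones, and 16 (0.167%) had them all below. Apid1 was the 1 gene with a symbol among the 47, and Vg the 1 among the 16, where 317 tested genes have a symbol. Within the control and within 25 ng/bee, 215 genes (2.25%) had high above low libraries in both dose groups and 181 (1.89%) had high below low in both. With a symbol, the first set held Apid1, CUTA, Mrjp9, Nipped-B and Vamp7, and the second held A4, Amel_8916, CSP2, Cyp314a1, Hex70a, Hiscl1, Jhe, Obp10, Obp14, Obp3, Pgrp-s2 and Vg. These names follow from the counts and were not chosen by a rule on roles. With so few libraries per dose group, genes can separate in both groups by the order of values alone. Genes among the 47 and the 16 can also have separated by the order of values alone. The share expected in that way was not computed for either pattern.

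Leaving out a high or low library takes away a condition that a separated gene must meet. The counts of separated genes were thus nearly bound to rise, and the rise does not measure their stability. The 47 became 94 without control replicate 1, 95 without control replicate 3, 116 without control replicate 4, 79 without 25 ng/bee replicate 1 and 105 without 25 ng/bee replicate 2. The 16 became 33, 32, 67 and 46 without control replicates 1, 2, 3 and 4, 30 and 65 without 25 ng/bee replicates 1 and 2, and 35, 28 and 26 without 250 ng/bee replicates 1, 4 and 5.

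The third comparison asked whether the slope on LOC406142 differed between the control and 25 ng/bee, the dose groups that each held high and low libraries. In edgeR 0 of 9559 genes (0%) passed, 199 had an unadjusted p under 0.05, and the smallest adjusted p was 1.00. For LOC406144 the slope at 25 ng/bee minus that in the control was 0.08 ± 0.17, and for Apid1 it was -0.14 ± 0.23 (SE). A p that misses the threshold does not show that the slopes were equal. At 250 ng/bee LOC406142 spanned 2.33 on the log2 scale, against 6.67 in the control and 4.09 at 25 ng/bee, and the slopes there have the largest errors.

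**Figure D5:**
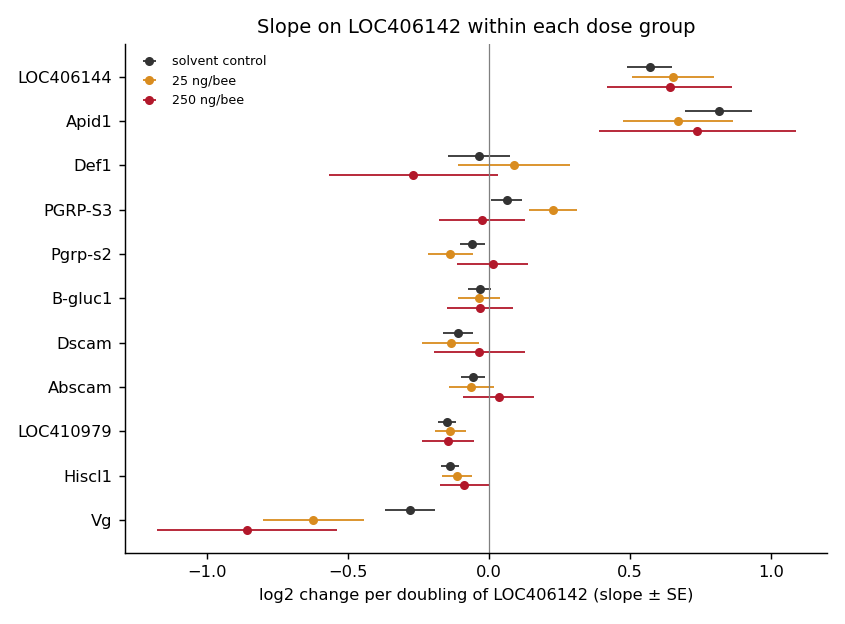
Slope on LOC406142 (log2 change per doubling, point ± SE) within each dose group of 5 libraries for 11 genes. LOC406144 and Apid1 are above 0.5 in each of the 3 dose groups, and LOC410979, Hiscl1 and Vg are below 0 in each. Vg is at -0.28 ± 0.089 in the control, -0.62 ± 0.18 at 25 ng/bee and -0.86 ± 0.32 at 250 ng/bee. The slopes at 250 ng/bee were not tested against the others.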

How the data were processed

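Poly-A RNA was sequenced with a strand-specific kit, per the labels' protocols. The authors deposited estimated counts for 12112 genes in 15 libraries, and 1 transcript table per library with FPKM and coverage, per the file headers. Each deposited count equalled summed coverage times length over 75, within 1 count. Tools in the submitters' processing notes are DESeq2 1.22.2, HISAT2 2.1.0, StringTie 2.0.2, Trimmomatic 0.39 and SAMtools 1.7, with no roles. Build and use of strand are not given in the sources read here, and 12069 genes (99.6%) had the same ends as in assembly Amel_HAv3.1.

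Counts were rounded. After edgeR's filterByExpr, 9559 genes (99.96% of counts) were tested, and 872 genes had no count. The slope on log2(CPM + 1) of LOC406142 was tested with the quasi-likelihood F test of edgeR 4.0.16 (R 4.3.3, two-sided, TMM), with dose group as a term, LOC406142 left out of the tests, and a threshold of 0.05 on the Benjamini-Hochberg adjusted p over 9559 genes. LOC406142 was taken as known without error. The script was tested on simulated data. DESeq2 1.42.0 and limma 3.58.1 were alternatives. No 2 libraries repeated each other (smallest chi-square per degree of freedom 18.6). P-values measure the spread between pools, whose separate colonies are not stated. Named genes were every tested member of the peptide and recognition lists, up to 5 genes per direction by p, 4 per direction with a symbol, and the lowest p of each other list. The libraries, lists and rules were chosen with earlier results of these data known. No gene of a list of glial markers was matched to the table.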

Additional observations from a re-analysis of the deposited data

Results flagged for a closer look

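Within each dose group of 5 libraries, 105 groups of values (35 genes) were checked for 1 library far from the other 4, and 13 were found. Chance gives about 1 in 20 for normally distributed values of genes not picked on their values. That rate does not hold here, since many of these genes were named for a low p of their slope on LOC406142. The check also used CPM without a log, whose normality was not tested, and all 13 flagged values were high ones. Control replicate 4 stood above the other controls in LOC406144 (4386 CPM, others up to 1265), Apid1 (3538 CPM, others up to 299) and LOC551089 (50.0 CPM, others up to 3.15). It is the library with the most LOC406142.

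Replicate 3 at 25 ng/bee, the library with the next highest LOC406142, stood apart in Apid1 (430.3 CPM, others up to 101), LOC551089 (14.6 CPM, others up to 2.87), CPR28 (16.5 CPM, others up to 9.39) and PGRP-S3 (44.0 CPM, others up to 22.0). Replicate 3 at 250 ng/bee, the highest of its dose group in LOC406142, stood apart in LOC406144 (611 CPM, others up to 299) and Acph-1 (4.86 CPM, others up to 1.61).

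The other 4 fell in libraries low in LOC406142. TpnT was high in control replicate 5 (189 CPM, others up to 22.8) and in 250 ng/bee replicate 4 (263 CPM, others up to 74.97). Syx1A was high in control replicate 5 (573 CPM, others up to 468), and Obp10 in 250 ng/bee replicate 1 (361 CPM, others up to 201), the library with the prefix 20191023.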

How the results depend on the processing

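The number of genes following LOC406142 was 2 in the main test, 11 in DESeq2's Wald test (4 positive, 7 negative), 5 in limma-voom with sample weights, 1 as high against low class (Vg, log2 difference -1.96, adjusted p 0.0314 in edgeR), 1 over the control and 25 ng/bee libraries alone and 0 over the 7 low libraries alone. The last 2 settings were added after seeing the data. Leaving out 1 library in turn gave 2 to 3. The counts of separated genes, 47 above and 16 below with all 12 libraries, ranged from 47 to 116 and from 19 to 67 with 1 library left out. Without a high or low library a gene has fewer conditions to meet, so such counts are nearly bound to rise. Leaving out a library between removes no condition, and there the counts can change only through the low-count filter and the scaling. No gene passed for the difference in slope between control and 25 ng/bee in any alternative run. Whether replicate numbers pair the libraries was not settled: 15 same-number pairs correlated at -0.0767 to 0.325, 6 above 0.1. Of 15 libraries, 5 correlated best with a library of their own number. Pairs with different numbers were not set beside these. With the replicate block, 2 genes passed, LOC406144 and Apid1, with adjusted p of 0.0157 and 0.0489 in edgeR.

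Of 947 slopes of the 35 named genes under the alternatives, 918 kept direction and side of the threshold, 14 came past it, 4 fell short of it and 11 changed sign. All 4 that fell short were slopes of LOC406144 or Apid1, the only named genes past the threshold in the main fit. Most other named genes were far from the threshold there, so their staying short of it was nearly given. The 918 thus do not measure the stability of the genes that passed. The sign changes were Pban at -0.021 (limma-voom) and -0.12 (no dose term), B-gluc1 at 0.018, Dcr-1 at -0.0084 and Hsp90 at -0.070 with the fat body term, Def1 at 0.00045 in the 14 libraries with 1 prefix, and LOC406144 at -0.48 and Apid1 at -0.95 over the 7 low libraries. Leaving out 1 library, Def1 ran from -0.0562 to 0.0243 and Abscam from -0.0819 to 2.94e-05. The run on the 14 libraries with 1 prefix equals the run without 250 ng/bee replicate 1, and both are in the 947. The fat body median was 0.04 with its own markers as a term and -0.32 without control replicate 4, and the muscle median was 0.01 without control replicate 5. The mean log2 FPKM of Def2, listed at 0 in 14 libraries, was -3.14 with a pseudocount of 0.1 and 0.043 with 1. The causes were not tested. Pools of 5 brains and 5 libraries per dose limit the precision, most of all at 250 ng/bee.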
